A study of Agaricus bisporus with 12 samples.

Results

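The genes described here are those of central carbon and storage sugar metabolism in the white button mushroom, Agaricus bisporus. They are the genes whose best KEGG Orthology match names an enzyme of glycolysis, the citric acid cycle and its glyoxylate bypass, the pentose phosphate pathway, or the metabolism of glycogen, starch, trehalose or mannitol. The words searched for also took in other names that hold them, such as homoisocitrate or isopropylmalate. These brought in 12 genes matched to lysine and leucine synthesis. Another 13 genes fell in none of the roles, such as phenylpyruvate tautomerase and dihydroorotate dehydrogenase (fumarate). All counts of members include both sets. This rule, which also left out 3 genes by their number, found 100 of the 9502 genes in the tables. Of these 100, 97 had enough reads to be tested. For 25 of the 100 the match is weak (an e-value above 1e-50), and such genes are marked as weak matches. The 3 members not tested, a weak match to phosphoglycerate mutase (148454) and 2 weak matches to homoaconitate hydratase (65418 and 217721), had 4, 3 and 26 reads over all libraries together.

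RNA was sequenced from compost that the mycelium of strain A15, a commercial heterokaryon (2 kinds of nuclei in a common cytoplasm), had grown through, so it comes from the mycelium in the bed and not from picked mushrooms. The compost was made from straw and manure. All groups share strain and compost and differ by stage. Spawning compost was sampled after 16 days of growth at 25 °C, before the casing of peat and lime went on. The 5 later stages were pinning (the forming of mushroom primordia), the first flush (the first wave of mushrooms), the interval that followed it, the second flush (the next wave), and the interval that followed that one. Each stage had 2 libraries with 7.27 to 9.34 M reads placed uniquely in genes. The labels do not state if both libraries of a stage stem from different beds. The p-values hence reflect the spread among these samples alone, which may be technical.

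As background, sugars released from compost enter glycolysis through hexokinase and leave it as pyruvate, which pyruvate dehydrogenase turns into acetyl-CoA for the citric acid cycle. The glyoxylate shunt, made of isocitrate lyase and malate synthase, lets a fungus build sugars from acetyl-CoA that comes from acetate or fatty acids, and phosphoenolpyruvate carboxykinase is the first dedicated step from there back to sugar. The pentose phosphate pathway supplies NADPH and pentoses. Mushrooms store carbon as glycogen, trehalose and mannitol, and in the button mushroom mannitol is known as an abundant sugar alcohol of the fruiting body.

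Levels below are RPKM, reads scaled to gene length and to library total, one value per library, with replicate 1 before replicate 2. A gene is said to have risen, fallen or changed where edgeR's quasi-likelihood test returned p under 0.05 after Benjamini-Hochberg adjustment across the 8814 genes that entered it. Log2 changes come from that fit, each with its standard error (SE). They are relative to the bulk of transcripts, and in bulk compost fewer cells of a type and less RNA per cell cannot be told apart. In the submitters' codes both first-flush libraries have a different letter from the remaining 10. No source says what the letter marks, and whatever it marks and this stage cannot be told apart, a limit that every comparison with first flush below carries. Replicates were farthest apart after first flush, where 11 of the 97 members differed at least 2-fold, against 0 to 2 members at every other stage. Among all 8814 genes, 520 were over 2-fold apart there by scaled counts, against 174 to 356 at the other stages. Of genes that mark a tissue, 13 laccase and manganese peroxidase genes stand for compost mycelium, the tissue sampled. Their summed level was 27747 and 28871 RPKM at spawning and 415 to 4922 RPKM at the later stages. The sum of 17 tyrosinase, lectin, aegerolysin and hydrophobin genes (taken for fruiting tissue) was between 5420 and 54881 RPKM, highest at pinning and lowest after second flush. At spawning, before casing, it was already 36727 and 37963 RPKM, so this list is not particular to fruiting tissue here. No gene of the first list and 2 of the second were at 0 in some library. The part of either in the results was not tested.

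Over the 6 stages 91 of the 97 members changed (93.8%, against 85.6% of all genes). The share of reads in the 100 genes was 2.15% and 2.16% at spawning, 2.05% and 2.11% at pinning, 1.83% and 1.85% at first flush, 2.37% and 2.52% after it, 2.54% and 2.67% in the second flush, and 2.81% and 2.85% at the end. After second flush was the highest stage for 26 of the 97 members (26.8%, against 9.6% of all genes), spawning was the lowest for 37 of them (38.1%, against 44.0% of all genes) and first flush for 27 (27.8%, against 16.6%).

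**Figure D1:**
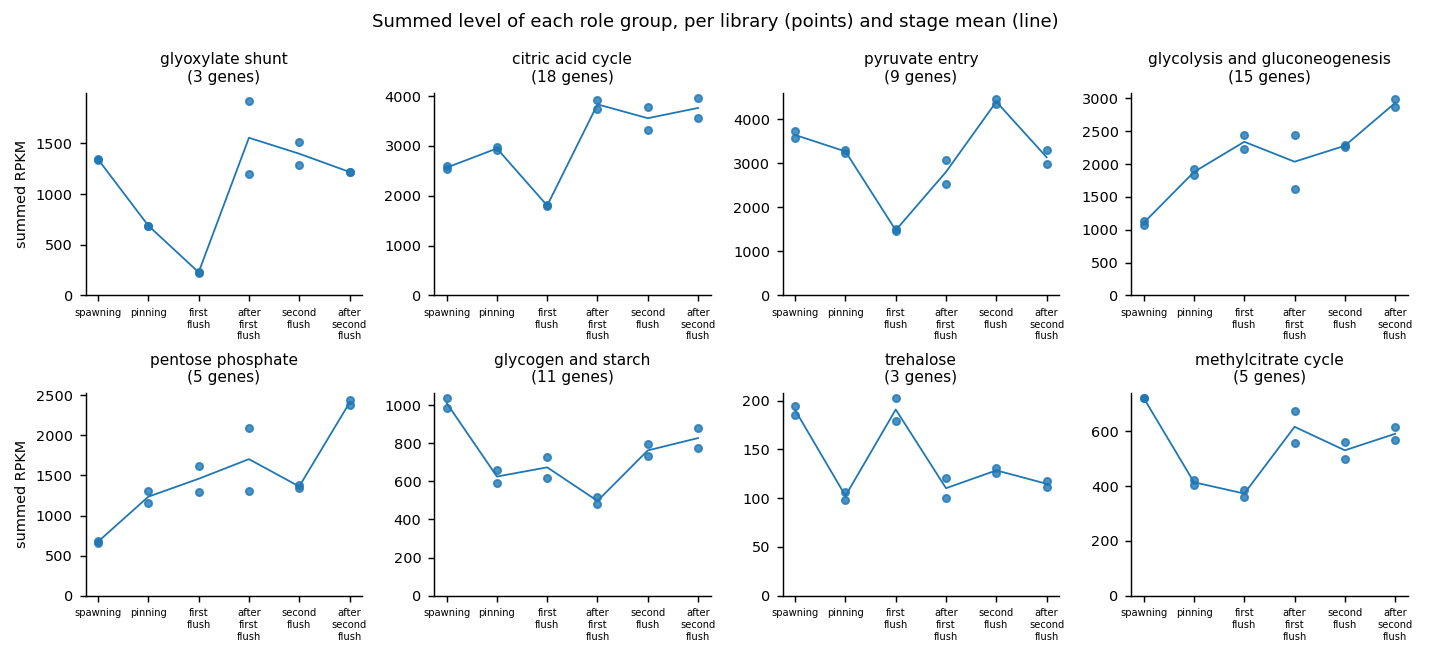
Summed RPKM (vertical axis, from 0) of 8 groups of genes by their role, at the 6 stages from spawning to after second flush; points are libraries and lines join stage means. The glyoxylate shunt sum stood at 234 and 223 RPKM at first flush, against 686 and 690 at pinning, while the glycolysis and pentose phosphate sums were highest after second flush.

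Many genes that burn acetyl-CoA or turn it back into sugar were low in first-flush compost. At first flush all 3 genes of the glyoxylate shunt, 10 of 18 citric acid cycle genes and 7 of 9 genes around pyruvate were lower than at pinning. After the flush 3, 14 and 6 genes of these groups rose. Of the 18 cycle genes 3 are weak matches, and of the 9 pyruvate genes 2 are. The 9 also include both phosphoenolpyruvate carboxykinase models described below. The median log2 changes were −1.73 in the shunt, −0.64 in the cycle and −0.79 around pyruvate at first flush, and 2.42, 1.07 and 0.64 after it. Across the 97 members, 17 rose and 33 fell at first flush against pinning (25.1% of all genes rose and 23.6% fell). The median log2 change was −0.13, against 0.03 for all genes. By limma on log2(RPKM + 1), which differs in both the test and the lack of scaling between libraries, there were 28 higher and 27 lower with a median member change of 0.10 and the median of all genes shifted up by 0.20. After first flush, 40 members rose and 18 fell against first flush (26.1% of all genes rose and 26% fell), with a median of 0.23, against −0.01 for all genes. These comparisons share the first-flush libraries and are not independent of each other.

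Malate synthase (188880), which joins glyoxylate to acetyl-CoA, had 57.0 and 62.1 RPKM at first flush, against 327 and 326 RPKM at pinning (log2 change −2.68, SE 0.20, edgeR adjusted p = 3.3e-06). After first flush it had 1074 and 660 RPKM (3.83, SE 0.21, edgeR adjusted p = 4.8e-07, against first flush). All other libraries lay far above the first-flush pair: the lowest was 326 RPKM at pinning, and spawning compost had 529 and 521 RPKM.

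The main isocitrate lyase gene (193793), the entry step of the shunt, had 92.9 and 75.6 RPKM at first flush, against 249 and 228 at pinning (−1.73, SE 0.28, edgeR adjusted p = 0.00077). After the flush its libraries differed 2-fold, at 612 and 305 RPKM (2.42, SE 0.29, edgeR adjusted p = 9.6e-05, against first flush). Even the lower of these stood above both pinning libraries. The other isocitrate lyase gene (189483) had 84.2 and 85.5 RPKM at first flush, against 110 and 136 at pinning (−0.76, SE 0.16, edgeR adjusted p = 0.0022), and 229 and 230 RPKM after the flush. The ratio of the first gene to the other was 4.66 and 5.11 at spawning, 2.26 and 1.68 at pinning, 1.10 and 0.884 at first flush, 2.67 and 1.33 after it, 2.67 and 2.70 in the second flush and 1.92 and 1.95 at the end. At first flush the 2 genes were thus at like levels, and in the 10 other libraries gene 193793 was the higher.

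Phosphoenolpyruvate carboxykinase is represented by 2 gene models that lie next to each other in the RefSeq gene order and share their best protein match, so whether they are parts of 1 gene cannot be told apart here. Model 192499 had 322 and 403 RPKM at first flush, against 1550 and 1505 at pinning (−2.30, SE 0.19, edgeR adjusted p = 5.4e-06). Model 221237 had 283 and 284 RPKM at first flush, against 535 and 630 at pinning (−1.26, SE 0.14, edgeR adjusted p = 3.8e-05). Both rose after first flush, by 1.57 (SE 0.18, edgeR adjusted p = 4.3e-05) and 0.77 (SE 0.14, edgeR adjusted p = 0.00072). At second flush they reached 1983 and 1919 RPKM in model 192499 and 1188 and 1268 RPKM in model 221237. Their ratio was not constant: 1.12 and 1.11 at spawning, 2.90 and 2.39 at pinning, and between 1.14 and 2.53 later.

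**Figure D2:**
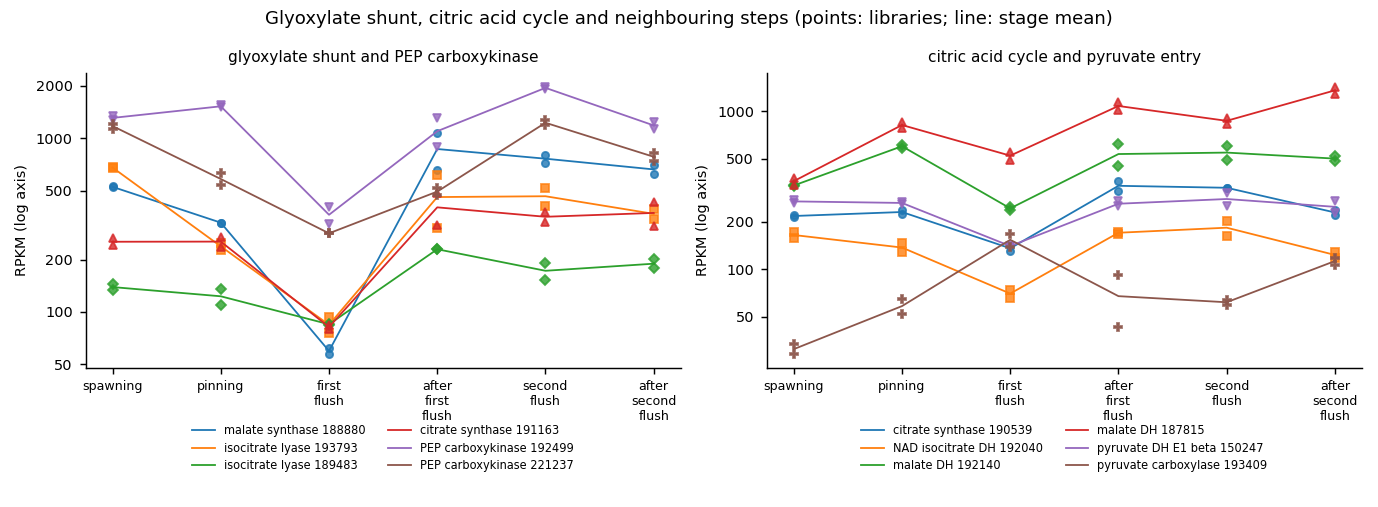
RPKM (log axis) by stage of glyoxylate shunt, citrate synthase and phosphoenolpyruvate (PEP) carboxykinase genes (left) and of citric acid cycle and pyruvate genes (right; DH, dehydrogenase); points are libraries, lines join stage means. All curves on the left dip at first flush, with malate synthase at 57.0 and 62.1 RPKM, and on the right pyruvate carboxylase peaks there at 168 and 139 RPKM.

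Citrate synthase, which feeds acetyl-CoA into both the cycle and the shunt, has 3 well matched genes, and all 3 fell at first flush and rose after it. The one annotated as peroxisomal (191163) had 84.0 and 79.7 RPKM at first flush, against 237 and 271 at pinning (−1.86, SE 0.22, edgeR adjusted p = 6.8e-05), and 482 and 318 RPKM after the flush. Gene 190539 had 130 and 141 RPKM at first flush, against 237 and 223 at pinning (−0.99, SE 0.13, edgeR adjusted p = 0.00012). In gene 116105 the fall was smaller, with 65.3 and 64.9 RPKM at first flush and 80.7 and 90.9 at pinning (−0.62, SE 0.16, edgeR adjusted p = 0.0078), and it was not called without pinning replicate 2 (edgeR adjusted p = 0.0606). No first-flush library of the 3 overlapped with pinning.

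The isocitrate dehydrogenases, which carry out the first oxidation of the cycle, moved by like amounts. Of the 2 NAD-linked genes, 192040 had 74.3 and 65.8 RPKM at first flush, against 146 and 128 at pinning (−1.20, SE 0.15, edgeR adjusted p = 9.9e-05), and 135516 had 69.8 and 77.7 RPKM, against 126 and 121. Gene 138513, annotated only as isocitrate dehydrogenase, had 100 and 96.8 RPKM at first flush and 208 and 202 at pinning (−1.28, SE 0.13, edgeR adjusted p = 1.9e-05). After the flush the 3 genes rose by 1.02 to 1.26 on the log2 scale. Malate dehydrogenase, the last step of the cycle, has 2 genes: 192140 had 237 and 248 RPKM at first flush, against 613 and 587 at pinning (−1.53, SE 0.18, edgeR adjusted p = 5.1e-05), and 187815 had 494 and 552 RPKM, against 786 and 849 (−0.87, SE 0.14, edgeR adjusted p = 0.00046). Fumarase (133137) did not pass the test at first flush, with 43.8 and 38.7 RPKM there and 40.1 and 42.3 at pinning. After the flush it rose to 91.4 and 110 RPKM (1.26, SE 0.16, edgeR adjusted p = 7.1e-05).

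Pyruvate dehydrogenase, the link from glycolysis to the cycle, fell in the 3 well matched genes of its E1 and E2 parts. The E1 beta gene (150247) had 140 and 140 RPKM at first flush, against 260 and 265 at pinning (−1.13, SE 0.15, edgeR adjusted p = 0.00013). In the E1 alpha gene (195227) the levels were 153 and 173 RPKM at first flush and 245 and 236 at pinning, and in the E2 gene (214484) 157 and 146 RPKM, against 275 and 287. The kinase that switches the complex off (179568) fell too, to 107 and 101 RPKM at first flush, against 143 and 139 at pinning (−0.67, SE 0.11, edgeR adjusted p = 0.00047). It then reached 246 and 229 RPKM after the flush, its highest stage.

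Pyruvate carboxylase (193409), which makes oxaloacetate from pyruvate and so refills the cycle, went the other way at first flush. It had 168 and 139 RPKM at first flush, against 51.9 and 64.8 at pinning (1.17, SE 0.28, edgeR adjusted p = 0.0073; 0.0621 without pinning replicate 1). After the flush it fell to 43.1 and 91.8 RPKM (−1.21, SE 0.28, edgeR adjusted p = 0.0055). Both first-flush libraries lay above the 10 others. ATP citrate lyase (194501), which makes cytosolic acetyl-CoA from citrate, had 226 and 192 RPKM at first flush, against 121 in both pinning libraries (0.56, SE 0.14, edgeR adjusted p = 0.0057; 0.0535 without first flush replicate 1), and fell to 89.4 and 112 RPKM after the flush.

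Respiratory chain genes moved beside the cycle: of 42, 0 rose and 36 fell at first flush, and 37 rose and 0 fell after it. Their summed level was 3698 and 4035 RPKM at first flush, against 6579 and 6278 at pinning. Of 58 tested genes of neighbouring pathway steps that are no members, such as succinate dehydrogenase and phosphoglucomutase, 15 rose and 23 fell at first flush and 25 rose and 11 fell after it. The compost mycelium markers summed to 4550 and 4922 RPKM at first flush, against 1855 and 1325 at pinning. The part of these in the changes of the members was not tested.

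The second flush did not show the same low levels. Against first flush, 41 members rose and 17 fell at second flush (23% of all genes rose and 22.7% fell), among them all 3 glyoxylate shunt genes, 13 of 18 citric acid cycle genes and 7 of 9 pyruvate genes that rose. Malate synthase had 722 and 803 RPKM at second flush, against 57.0 and 62.1 at first flush (3.78, SE 0.21, edgeR adjusted p = 3.6e-07). Isocitrate lyase 193793 had 408 and 519 RPKM at second flush, against 92.9 and 75.6 (2.57, SE 0.29, edgeR adjusted p = 7.6e-05). Against the stage before it, after first flush, fewer members changed at second flush: 15 rose and 10 fell (11.3% and 11% of all genes). None of the shunt genes and 2 of the cycle genes were among them. These counts were unsteady: 24 members rose without after first flush replicate 2 and 8 without second flush replicate 2, 6 fell without either second flush library, and a fit of only those 2 stages called 2 up and 2 down. The step after the second flush differed from that after the first, by a test of the difference itself, in 19 members in the positive and 31 in the negative direction (19.4% and 20% of all genes). All 3 shunt genes were among the negative ones.

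**Figure D3:**
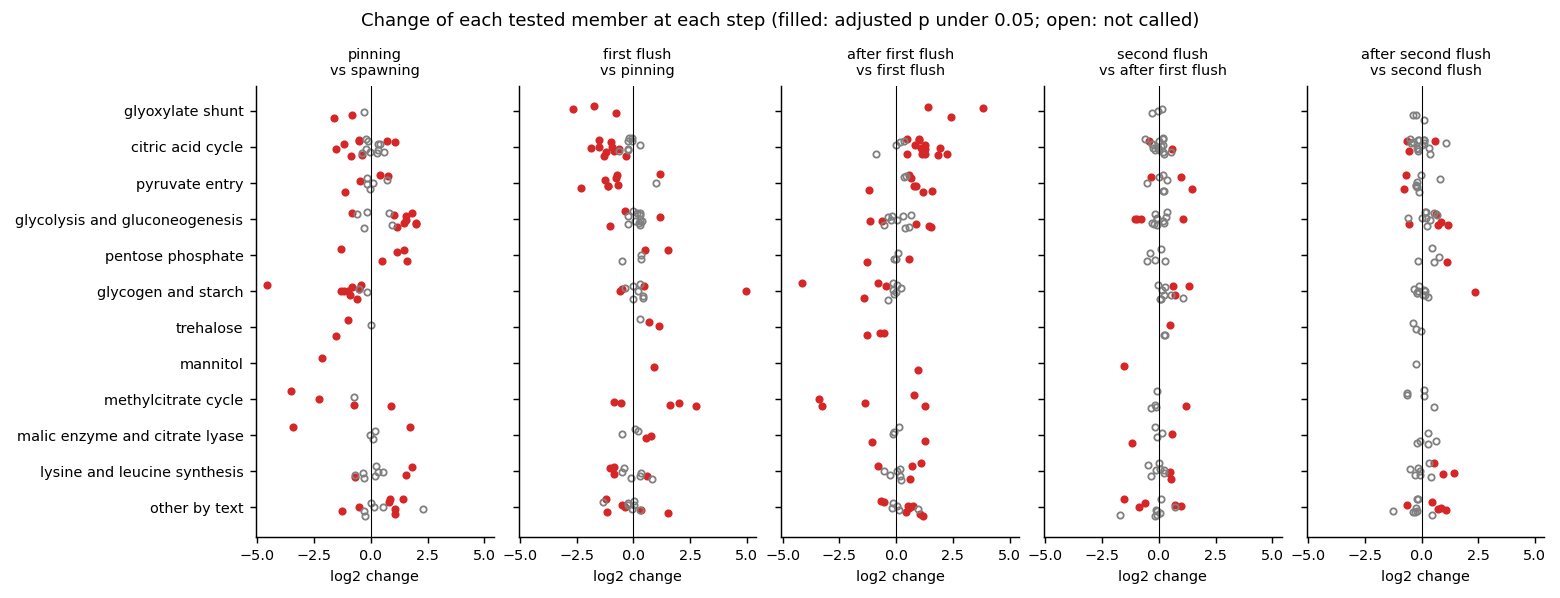
Log2 change of each of the 97 tested members (horizontal axis) at the 5 consecutive steps, by role; filled red points passed the test at an adjusted p under 0.05, open grey points did not, and vertical scatter within a row has no meaning. In the step to first flush the shunt, cycle and pyruvate rows lie mostly left of 0, and in the next step right of it; in the step to pinning the glycolysis and pentose phosphate rows lie mostly right of 0 and glycogen and trehalose left.

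Glycolysis and the pentose phosphate pathway followed another course, with the largest step between spawning and pinning. At pinning 8 of 14 tested glycolysis genes rose and 1 fell against spawning, and 4 of 5 pentose phosphate genes rose and 1 fell, with medians of 1.11 and 1.13. Without spawning replicate 2 the pentose phosphate risers were 2. Of all 15 glycolysis genes, tested or not, 4 are weak matches, and of the 5 pentose phosphate genes 2 are. Over all members 25 rose and 31 fell (29.3% of all genes rose and 25.2% fell), with a median log2 change of −0.13, against 0.05 for all genes. Ribosomal protein genes rose beside them, 75 of 90, and so did 33 of 42 respiratory chain genes, while the compost mycelium markers fell to 1855 and 1325 RPKM, against 27747 and 28871 at spawning. Their part was not tested. Among the neighbouring pathway steps 25 genes rose and 15 fell.

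The 5 enzymes of the middle and lower part of glycolysis from aldolase to enolase, other than glyceraldehyde 3-phosphate dehydrogenase, all rose, by 1.53 to 2.01 on the log2 scale. Fructose-bisphosphate aldolase (192128), which splits the 6-carbon sugar, had 201 and 228 RPKM at pinning, against 59.2 and 50.9 at spawning (1.83, SE 0.14, edgeR adjusted p = 2.3e-06). Triosephosphate isomerase (195423), which interconverts the products, had 112 and 143 RPKM at pinning, against 29.8 and 28.7 (1.99, SE 0.21, edgeR adjusted p = 2e-05). Phosphoglycerate kinase (190666), an ATP-forming step, had 79.1 and 93.7 RPKM at pinning and 26.8 and 26.2 at spawning (1.57, SE 0.17, edgeR adjusted p = 2.1e-05). Phosphoglycerate mutase (189140) and enolase (189297) rose by 1.53 (SE 0.22) and 2.01 (SE 0.30). The libraries of the 2 stages did not overlap in any of the 5 genes. The 6-phosphofructokinase gene (191352) had 16.7 and 19 RPKM at pinning, against 9.9 and 6.05 at spawning.

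Pyruvate kinase (189950), the last step, was not among the risers. Its levels were 657 and 605 RPKM at pinning and 715 and 696 RPKM at spawning, a log2 change of −0.29 that did not pass the test. The one member named glyceraldehyde 3-phosphate dehydrogenase (153444) was a low-level gene with 9.49 and 8.33 RPKM at pinning, against 14.1 and 14.7 at spawning (−0.83, SE 0.23, edgeR adjusted p = 0.011). That call was lost without spawning replicate 2 or pinning replicate 2 (highest edgeR adjusted p = 0.0751). It fell further at first flush, to 5.87 and 4.37 RPKM (edgeR adjusted p = 0.0057; 0.0501 without first flush replicate 2), and had 15.5 and 14.6 RPKM after the flush.

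Hexokinase, the entry of glucose into glycolysis, has 2 genes with different courses. Gene 194802 had 75.0 and 75.3 RPKM at pinning, against 26.0 and 23.6 at spawning (1.47, SE 0.18, edgeR adjusted p = 5.4e-05). At first flush it had 201 and 199 RPKM (1.19, SE 0.18, edgeR adjusted p = 0.00027, against pinning) and after it 72.1 and 111 RPKM. Gene 184646 stayed between 59.5 and 89.5 RPKM in all 12 libraries, and no consecutive step passed the test. The ratio of 194802 to 184646 was 0.415 and 0.382 at spawning, 1.26 and 1.20 at pinning, 2.41 and 2.22 at first flush, 1.05 and 1.37 after it, 1.69 and 1.53 in the second flush, and 2.23 and 1.66 at the end. Gene 184646 was the higher of the 2 at spawning only.

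**Figure D4:**
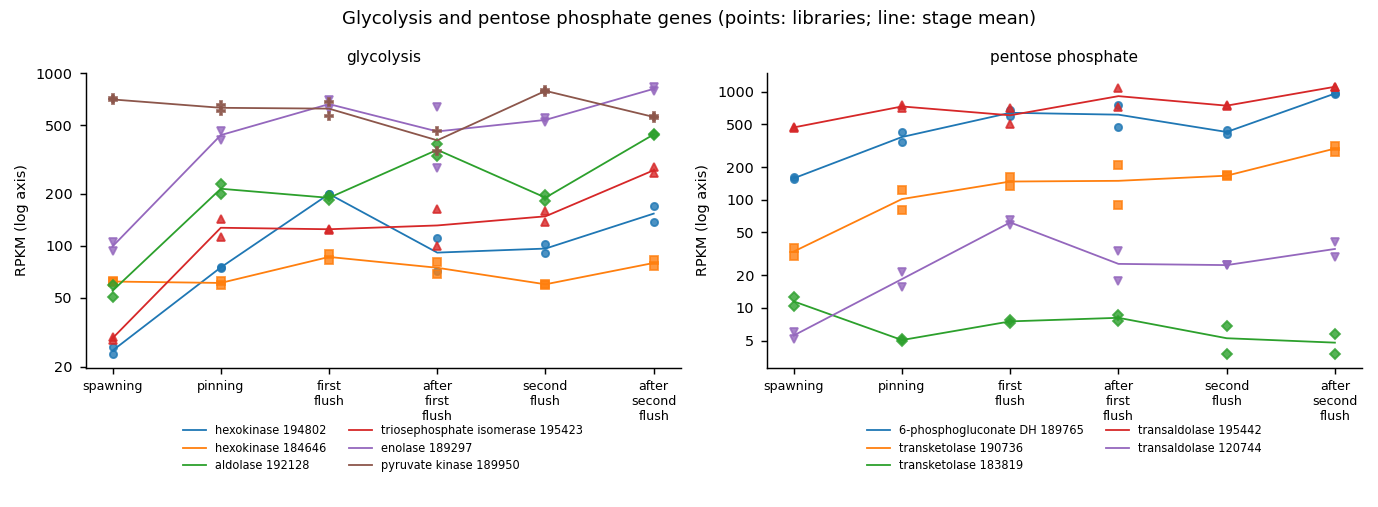
RPKM (log axis) by stage of glycolysis genes (left) and pentose phosphate genes (right; DH, dehydrogenase); points are libraries and lines join stage means. Aldolase, triosephosphate isomerase, enolase, 6-phosphogluconate dehydrogenase and transketolase 190736 have their lowest levels at spawning and their highest after second flush, while hexokinase 194802 peaks at first flush with 201 and 199 RPKM.

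In the pentose phosphate pathway, 6-phosphogluconate dehydrogenase (189765), an NADPH-forming step, had 342 and 419 RPKM at pinning, against 161 and 155 at spawning (1.13, SE 0.20, edgeR adjusted p = 0.00055). Transketolase 190736, which moves 2-carbon units between sugars, had 80.2 and 123 RPKM at pinning and 36.0 and 30.5 at spawning (1.48, SE 0.36, edgeR adjusted p = 0.0067; 0.0506 without spawning replicate 2). A weak match to transketolase (183819) went down over the same step, with 5.17 and 4.93 RPKM at pinning, against 10.5 and 12.5 (−1.32, SE 0.25, edgeR adjusted p = 0.001). The ratio of 190736 to 183819 was 3.43 and 2.44 at spawning and 54.8 and 73.5 after second flush. The most abundant of the 5, transaldolase 195442, moved least: 709 and 749 RPKM at pinning and 475 and 458 at spawning (0.51, SE 0.20, edgeR adjusted p = 0.046). That rise was lost with DESeq2's size factors (edgeR adjusted p = 0.0663) and without any 1 library of spawning, pinning, second flush or after second flush (edgeR adjusted p up to 0.153). A weak match to transaldolase (120744) peaked at first flush instead, with 59.0 and 64.5 RPKM, against 21.4 and 15.6 at pinning (1.51, SE 0.27, edgeR adjusted p = 0.00093).

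After second flush the 5 glycolytic genes, 6-phosphogluconate dehydrogenase and transketolase 190736 had their highest stage means. Against second flush, 14 members rose and 6 fell (5.29% and 2.89% of all genes), among them 4 glycolysis genes that rose and 1 that fell. The 4 became 1 without second flush replicate 1 or either library from after second flush, 2 without second flush replicate 2 or in a fit of only those stages, and 3 without a library of spawning, pinning or first flush. Hexokinase 194802, 1 of the 4, lost its call without any 1 of 10 libraries (highest edgeR adjusted p = 0.313). Without either library from after first flush 24 members rose, and without a library of the stages compared the risers were 5 (second flush replicate 1 or after second flush replicate 1), 9 (second flush replicate 2) and 7 (after second flush replicate 2). The fallers were 3, 0 and 1 without second flush replicate 1, second flush replicate 2 and after second flush replicate 1, and 2 in a fit of only those stages. Aldolase had 446 and 439 RPKM after second flush, against 183 and 198 at second flush (1.16, SE 0.14, edgeR adjusted p = 0.00071), and 6-phosphogluconate dehydrogenase had 962 and 956 RPKM, against 444 and 403 (1.13, SE 0.20, edgeR adjusted p = 0.0061). Neither pair overlapped. Triosephosphate isomerase had 264 and 285 RPKM after second flush and 159 and 138 at second flush (0.84, SE 0.20, edgeR adjusted p = 0.024), a call that was also lost without any 1 of these 4 (highest edgeR adjusted p = 0.128).

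The end of cultivation was also compared with its start, and the share of members that rose was near that of all genes. After second flush 32 members rose and 35 fell against spawning (31.9% and 27.6% of all genes), with 10 of 14 glycolysis genes and 4 of 5 pentose phosphate genes up. By limma on unscaled log2(RPKM + 1), another test as well as another scale, 45 members were higher and 21 lower, with the median of all genes shifted up by 0.27. The 5 glycolytic genes from aldolase to enolase were up by 2.08 to 2.93 on the log2 scale. Of the 18 citric acid cycle genes 3 rose and 6 fell, against 9 and 3 by that limma fit. The 3 risers became 5 without either library from after first flush, and 2 (with 5 fallers) without either spawning library or after second flush replicate 1. Pyruvate kinase fell, with 565 and 552 RPKM after second flush, against 715 and 696 at spawning (−0.64, SE 0.15, edgeR adjusted p = 0.0033; limma on log2(RPKM + 1) gave an adjusted p of 0.0558). After second flush against after first flush, 18 members rose and 8 fell (8.75% and 7.53% of all genes), and 16 and 13 by the same limma fit. Without after first flush replicate 2 there were 32 risers, and without after second flush replicate 1 or 2 there were 11 and 10. The fallers were 5 without either spawning library, 3 without after first flush replicate 1, and 4 and 3 without after second flush replicate 1 and 2. A fit of only those 2 stages called 3 up and 2 down.

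Storage sugar genes were lower at pinning than at spawning. Of 11 genes for glycogen and starch, 0 rose and 9 fell (29.3% of all genes rose and 25.2% fell), with a median log2 change of −0.82, against 0.05 for all genes. Of these 11, 5 are weak matches, and without them 4 of 6 fell, with a median of −0.52. Of 3 genes for trehalose synthesis, 0 rose and 2 fell. Glycogen synthase (212415), which lengthens glycogen chains, had 43.3 and 39.9 RPKM at pinning, against 74.5 and 79.1 at spawning (−1.02, SE 0.22, edgeR adjusted p = 0.0026). Glycogen debranching enzyme, which works on the breakdown side, has several genes. Gene 210827 had 26.5 and 27.5 RPKM at pinning and 45.7 and 46.5 at spawning (−0.90, SE 0.11, edgeR adjusted p = 3.7e-05). The best match, 206172, had its lowest stage mean at pinning (10.5 RPKM) but its highest after second flush (24.5 RPKM). The most abundant, the weak match 48387, had 221 and 248 RPKM at pinning and 374 and 382 at spawning. The weak match 117833 had 6.98 and 6.9 RPKM at pinning and 15 and 13.4 at spawning, and the weak match 225252 had its highest mean at spawning (189 RPKM). Glycogen synthase, debranching gene 210827 and the weak matches 48387, 117833 and 225252 thus moved the same way in this step. Gene 225252 was not called without spawning replicate 2 or pinning replicate 1. The best match 206172 is given by its stage means only. A weak match to glycogenin (182070), the primer protein of glycogen, had 39.0 and 42.0 RPKM at pinning, against 53.5 and 58.1 (−0.60, SE 0.12, edgeR adjusted p = 0.0011).

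Genes for trehalose synthesis, which starts from UDP-glucose and glucose 6-phosphate, fell into those that were high at spawning and one that was not. Trehalose 6-phosphate synthase (66173) had 30.3 and 36.1 RPKM at pinning, against 85.0 and 90.5 at spawning (−1.54, SE 0.18, edgeR adjusted p = 3.1e-05). At first flush it had 63.3 and 59.8 RPKM (0.67, SE 0.18, edgeR adjusted p = 0.0084, against pinning; 0.0833 without pinning replicate 1). Of the 2 genes annotated as trehalose 6-phosphate synthase/phosphatase, 121550 followed the same course at spawning and pinning, with 43.6 RPKM in both pinning libraries and 76.2 and 82.8 at spawning (−1.001, SE 0.15, edgeR adjusted p = 0.00018). The other, 120329, did not pass the test there (24.1 and 27.1 RPKM at pinning, 24.4 and 21.5 at spawning). At first flush it had 69.2 and 63.3 RPKM, more than in any other library (1.14, SE 0.13, edgeR adjusted p = 5.9e-05, against pinning). After first flush all 3 trehalose genes fell against first flush, though gene 66173 not without first flush replicate 1 or 2 or after first flush replicate 1 (highest edgeR adjusted p = 0.154), nor in a fit of only those 2 stages (edgeR adjusted p = 0.0632). Gene 120329 fell to 27.7 RPKM in both libraries (−1.28, SE 0.13, edgeR adjusted p = 2e-05).

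**Figure D5:**
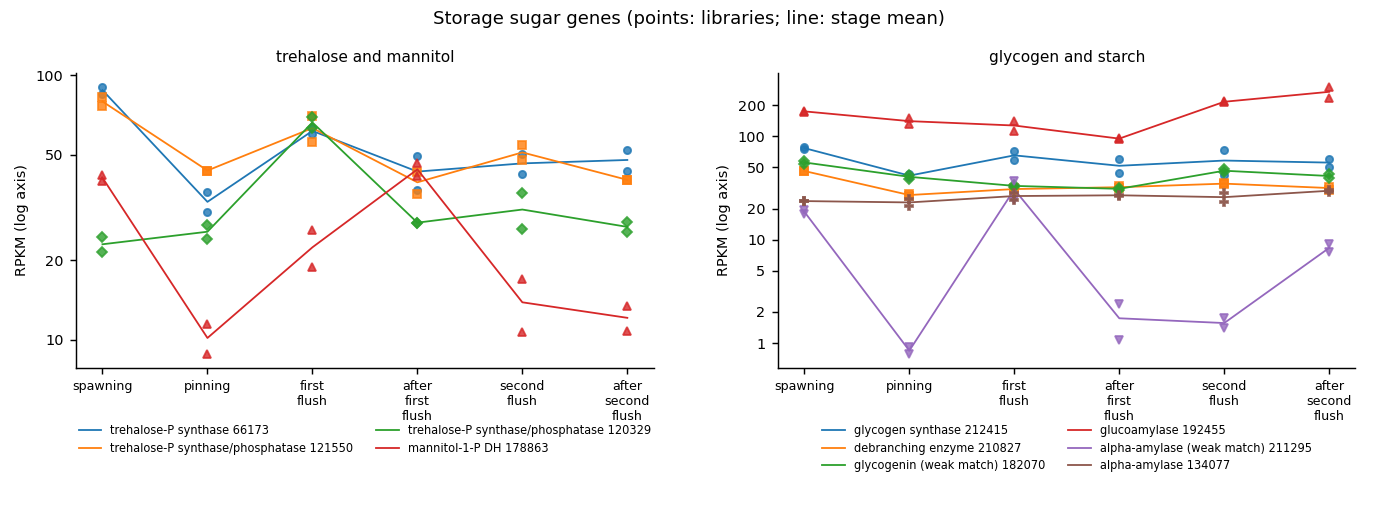
RPKM (log axis) by stage of trehalose and mannitol genes (left; P, phosphate; DH, dehydrogenase) and of glycogen and starch genes (right); points are libraries and lines join stage means. The lowest of the trehalose genes at spawning, 120329, peaks at first flush with 69.2 and 63.3 RPKM, and the alpha-amylase match 211295 spans the widest range, 0.778 to 36.8 RPKM.

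Mannitol-1-phosphate 5-dehydrogenase (178863), which links fructose 6-phosphate and mannitol 1-phosphate, was the only member named for mannitol. It had 11.5 and 8.81 RPKM at pinning, against 42.0 and 39.9 at spawning (−2.14, SE 0.24, edgeR adjusted p = 2.2e-05). At first flush its libraries were at 18.8 and 25.9 RPKM and after first flush at 46.7 and 41.4 RPKM. The second flush then had 17.0 and 10.7 RPKM (−1.55, SE 0.23, edgeR adjusted p = 0.0016, against after first flush; 0.0506 in a fit of only those 2 stages). Its high libraries were thus those of spawning and after first flush.

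Glucoamylase (192455), which cuts glucose from the ends of starch-like chains, had 213 and 218 RPKM at second flush, against 94.3 and 95.4 after first flush (1.31, SE 0.16, edgeR adjusted p = 0.00085), and 236 and 302 RPKM after second flush. One alpha-amylase gene (134077) stayed between 21.2 and 30.3 RPKM throughout and passed the test in no consecutive step. Another (184188) had its highest stage mean at first flush (23.6 and 21.1 RPKM), against 14.8 and 16.4 at pinning and 19.9 and 21 at spawning. A weak match to alpha-amylase (211295) had 36.8 and 24.4 RPKM at first flush, against 0.778 and 0.910 at pinning. It had 19.4 and 17.8 RPKM at spawning and 9.10 and 7.54 after second flush, and under 2.5 in the other libraries.

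The methylcitrate cycle, which in fungi breaks down propionyl-CoA, held genes with opposite courses. Of 4 genes matched to methylisocitrate lyase, its last step, 192813 and 192814 are next to each other in the RefSeq gene order, and 70190 lies 2 and 3 places away. Gene 192813 had 68.3 and 71.2 RPKM at spawning, 5.56 and 7.69 at pinning, 59.6 and 46.6 at first flush, and between 2.73 and 5.80 in the 6 later libraries. Its fall at pinning (−3.53, SE 0.19, edgeR adjusted p = 4.4e-07) and rise at first flush (2.78, SE 0.19, edgeR adjusted p = 1.7e-06) were the steepest of the methylcitrate genes. The neighbour 192814 had 81.8 and 79.1 RPKM at spawning, 15.4 and 20.7 at pinning, 70.7 and 57.4 at first flush, and 5.24 to 15.4 later. The third of these neighbours, 70190, rose at first flush as well (7.28 and 4.56 RPKM, against 1.15 and 1.35 at pinning). The summed level of the compost mycelium markers was likewise highest at spawning and next highest at first flush, and its part was not tested.

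The gene elsewhere in the genome, 193475, rose at pinning, with 20.5 and 20.8 RPKM, against 10.6 and 9.99 at spawning (0.87, SE 0.19, edgeR adjusted p = 0.0022), and had 40.1 and 37.2 RPKM after second flush. An earlier step, 2-methylcitrate dehydratase (135920), was the most abundant gene of the cycle. It had 232 and 235 RPKM at first flush, against 380 and 356 at pinning (−0.88, SE 0.14, edgeR adjusted p = 0.00044), the step at which genes 192813 and 192814 rose, and 632 and 514 RPKM after the flush. At pinning it fell, as those 2 did, with 380 and 356 RPKM there, against 559 and 560 at spawning (−0.74, SE 0.14, edgeR adjusted p = 0.001).

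In the step from spawning to pinning some genes of the acetyl-CoA routes moved as well. In the glyoxylate shunt 2 of 3 genes fell at pinning, isocitrate lyase 193793 by 1.64 on the log2 scale (249 and 228 RPKM at pinning, against 671 and 685 at spawning; SE 0.28, edgeR adjusted p = 0.00073) and malate synthase by 0.82 (SE 0.19, edgeR adjusted p = 0.0034). Of the 18 citric acid cycle genes 2 rose and 6 fell, where 29.3% of all genes rose and 25.2% fell, so the share that fell was near that of all genes. The 2 that rose were both malate dehydrogenases: 187815 had 786 and 849 RPKM at pinning, against 378 and 343 (1.05, SE 0.14, edgeR adjusted p = 8.9e-05), and 192140 had 613 and 587 RPKM, against 335 and 342.

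Malic enzymes turn malate into pyruvate, the NADP-linked ones with the yield of NADPH. NADP malic enzyme 186569 had 17.1 and 11.3 RPKM at pinning, against 129 and 150 at spawning (−3.43, SE 0.22, edgeR adjusted p = 1.1e-06), and stayed between 11.3 and 39.4 RPKM from then on. The other NADP malic enzyme, 194243, had 35.3 and 39.8 RPKM at pinning and 30.8 and 29.7 at spawning, which did not pass the test. The ratio of 186569 to 194243 was 4.19 and 5.05 at spawning and between 0.204 and 0.723 later. A further malic enzyme (62584) was highest around the first flush, with 40.3 and 36.8 RPKM at first flush and 42.7 and 42.6 after it, and fell to 16.4 and 17.7 RPKM at second flush (−1.19, SE 0.15, edgeR adjusted p = 0.00099).

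The search words also brought in amino acid synthesis. Leucine synthesis has 1 gene for each of its 3 dedicated steps, and all 3 rose after second flush against second flush, by 0.55 to 1.43 on the log2 scale. The first of them, 2-isopropylmalate synthase (115052), was not called without second flush replicate 1 or 2 or after second flush replicate 1 (highest edgeR adjusted p = 0.154), nor in a fit of only those 2 stages (edgeR adjusted p = 0.0598). Isopropylmalate dehydratase (191925) had 344 and 207 RPKM after second flush, against 111 and 86.9 at second flush (1.43, SE 0.22, edgeR adjusted p = 0.0034), and 31.0 and 27.5 RPKM at spawning. Isopropylmalate dehydrogenase (195821) had 389 and 370 RPKM after second flush and 198 and 189 at second flush (0.93, SE 0.20, edgeR adjusted p = 0.016), a call that was lost when any 1 of these 4 libraries was left out (highest edgeR adjusted p = 0.0957). For lysine, which fungi make from 2-oxoglutarate by a route that runs parallel to the citric acid cycle, homocitrate synthase (191298) had 309 and 298 RPKM at pinning, against 456 and 450 at spawning (−0.71, SE 0.13, edgeR adjusted p = 0.00058).

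Phosphoglycerate dehydrogenase, which draws 3-phosphoglycerate off glycolysis towards serine, has 2 genes that moved apart. Gene 60912 had 290 and 297 RPKM at pinning, against 644 and 648 at spawning (−1.27, SE 0.26, edgeR adjusted p = 0.0019), and 156 and 150 RPKM at first flush (−1.16, SE 0.26, edgeR adjusted p = 0.004, against pinning). Gene 151018 rose at pinning, to 101 and 104 RPKM, against 46.8 and 42.5 at spawning (1.07, SE 0.23, edgeR adjusted p = 0.0022). After second flush the levels of the 2 genes were close, at 183 and 239 RPKM for 60912 and 205 and 206 RPKM for 151018.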

How the data were processed

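The authors deposited 1 table per library. Its count column holds uniquely placed reads per gene, per the file headers, and the RPKM values deposited beside them are that count over gene length and library total, with no further scaling. No source used here names the aligner or genome build. A gene with no line in a library was taken as 0. Members were matched by gene number to RefSeq locus tags of the H97 strain (100 of 100), used for names and gene order only. Strandedness is not stated, so overlapping genes are uncertain, as are close copies, since only unique reads were counted.

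Genes passing edgeR's filterByExpr (minimum count 10, total 15) received TMM factors (0.834 to 1.11) and went into the robust quasi-likelihood model over 12 libraries, with 1 term per stage (6 residual degrees of freedom, common dispersion 0.022). The SE is the log2 change over the root of F. The fit was tested on simulated data with 50 genes changed at first flush for each fold. Against pinning it recovered 24% of 1.5-fold, 76% of 2-fold, 98% of 4-fold and 96% of 8-fold changes. Of its 158 calls 11 were false. Far fewer genes changed in the simulated data than were called in the real comparison, so these rates need not carry over. A gene that did not pass the test may still have changed by 1.5-fold or so. An exact permutation test of 2 libraries against 2 cannot go below p = 0.333. Alternatives were DESeq2, its size factors, no filter, limma on log2(RPKM + 1) and log2(RPKM + 0.1), only the 2 stages compared, a replicate block and leaving out each library.

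The members, lists and comparisons were chosen with earlier results of these data known. Chosen for naming were, in each of 8 comparisons, the 3 largest rises and falls (called, libraries not overlapping, at least 20 CPM). The most abundant gene of each role, and key enzymes whatever their values, were chosen as well, 53 genes in all. Another 14, and the few others given by value only, were added after their values were seen. Of the 53, a weak match to citrate synthase (200580) and an alanine-glyoxylate transaminase (180088) are not described. Roles were read as whole enzyme names, a reading set after the annotation was seen. R 4.3.3, edgeR 4.0.16, limma 3.58.1, DESeq2 1.42.0 and Python 3.11.15 were used.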

Additional observations from a re-analysis of the deposited data

Results flagged for a closer look

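The step after the second flush differed from the step after the first flush in 39 of the 67 genes chosen for naming. This was by edgeR's test of the difference itself (adjusted p under 0.05). Some of the 67 were chosen by their changes in these same steps, or added after their values were seen. The count of 39 thus says nothing about the members as a set. Over all 97 members the difference was positive in 19 and negative in 31, against 19.4% and 20% of all genes. Values are the log2 change after second flush against second flush, minus that after first flush against first flush. The first-flush libraries carry their own code letter, and what it marks and this difference cannot be told apart.

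Genes of the acetyl-CoA routes had differences of both signs. Negative ones were −4.09 for malate synthase (188880), −2.80 and −1.32 for the isocitrate lyases (193793 and 189483), and −2.33 and −1.47 for the phosphoenolpyruvate carboxykinase models (192499 and 221237). Among citrate synthases they were −2.23 (191163), −1.85 (190539), −1.29 (116105) and −2.00 for a weak match (39845), but 1.98 for another weak match (183682). Pyruvate carboxylase (193409) with 2.02 and ATP citrate lyase (194501) with 0.89 were positive too. The isocitrate dehydrogenases had −1.88 (192040), −1.71 (135516) and −1.38 (138513), malate dehydrogenase 192140 had −1.29 and fumarase (133137) had −1.17. Pyruvate dehydrogenase genes had −1.07 (150247), −0.85 (214484) and −0.82 (195227), and their kinase (179568) had −1.18. Other negative values were −2.14 for glyceraldehyde 3-phosphate dehydrogenase (153444), −1.17 for 2-methylcitrate dehydratase (135920), −1.19 for an alanine-glyoxylate transaminase (151665) and −1.18 for mannitol-1-phosphate 5-dehydrogenase (178863). The last was not called without replicate 1 of first flush, second flush or after second flush (highest edgeR adjusted p = 0.0605).

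Further positive differences were found in the alpha-amylase match 211295 (6.50) and the methylisocitrate lyases 192813 (2.78) and 192814 (2.65). 3-Isopropylmalate dehydratase (191925) had 1.95 and hexokinase 194802 had 1.78. The transaldolase match 120744 had 1.74, 6-phosphogluconate dehydrogenase (189765) had 1.22, the trehalose gene 120329 had 1.02 and the ketohexokinase match 201885 had 1.01. Smaller values were 0.84 for 2-isopropylmalate synthase (115052), 0.79 for triosephosphate isomerase (195423), 0.78 for 3-isopropylmalate dehydrogenase (195821), 0.73 for glucoamylase (192455) and 0.60 for hexokinase 184646. The last 4 were not steady: 195821 lost its call without any 1 library other than after first flush replicate 2 (highest edgeR adjusted p = 0.142), and 195423 without any 1 library other than that one and the 2 from pinning, where it was kept (0.112). Glucoamylase lost it without first flush replicate 1, second flush replicate 1 or after second flush replicate 2 (0.0897), and 184646 without first flush replicate 2, second flush replicate 1 or after second flush replicate 2 (0.0623).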

How the results depend on the processing

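The 67 genes chosen for naming had 327 called changes. Of these, 227 kept direction and call under every alternative, none changed sign in any alternative, and 83 lost the call without some library. Every count of called members stayed within 1.5 times under DESeq2, its size factors, no filter and the replicate block. Limma on log2 RPKM without scaling (either pseudocount; both test and scale differ) gave 28 risers at first flush against pinning (17 by edgeR), 13 fallers after second flush against after first flush (8 by edgeR) and 21 fallers after second flush against spawning (35 by edgeR). Fitting only the 2 stages compared gave 2 risers and 2 fallers at second flush against after first flush, 2 fallers after second flush against second flush, and 3 risers and 2 fallers after second flush against after first flush. Leaving out each library in turn gave 8 to 24 risers and 6 to 11 fallers at second flush against after first flush, 5 to 24 and 0 to 7 after second flush against second flush, and 10 to 32 and 3 to 12 after second flush against after first flush. It gave 12 to 21 risers at first flush against pinning, 14 to 26 fallers after first flush, and 13 to 26 positive differences between the after-flush steps. The cause of these shifts was not tested. Deviations of same-numbered libraries from their stage means had correlations of −0.239 to 0.204 between stages (15 stage pairs, 1 above 0.1). Low correlations cannot show that same-numbered libraries stem from different beds, so whether the numbers pair the samples is not known. With the replicate block the counts at first flush against pinning were 17 risers and 33 fallers, and 8 of the 327 calls were lost, with edgeR adjusted p of up to 0.0652.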
